A study of Mus musculus with 2 samples.

Results

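The membrane-bound adenylyl cyclases, the enzymes that make the second messenger cAMP from ATP, were examined in cortical RNA of WT and P4H-TM KO mice. P4H-TM is a transmembrane prolyl 4-hydroxylase of the endoplasmic reticulum, related to the enzymes that hydroxylate the α subunits of the hypoxia-inducible factor HIF. All probe sets annotated to a single symbol were taken where that symbol was one of Adcy1 to Adcy9. This gave 21 probe sets for all 9 genes, of 18193 genes named on the arrays. Male littermates of strain C57BL/6J were used at an age of 2.5 months and were otherwise naive. WT mice carried the intact P4h-tm gene and P4H-TM KO mice were P4h-tm-/-, with the construction of the allele not given in the sources used here. The RNA from 4 animals went onto each Affymetrix Mouse Genome array as one pool, so that there were 2 arrays, 1 for each genotype. No value therefore has a replicate check, and neither p-values nor an error between animals can be given.

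Adenylyl cyclases are switched on and off by G protein-coupled receptors, through the stimulatory and inhibitory G protein α subunits. They also differ in how they respond to calcium, which makes them a meeting point of calcium and cAMP signaling. Adcy1, Adcy3 and Adcy8 encode the enzymes stimulated by calcium with calmodulin. Adcy5 and Adcy6 encode those inhibited by calcium, and Adcy2, Adcy4 and Adcy7 those that calcium does not regulate directly and that respond to G protein βγ subunits or protein kinase C. The enzyme encoded by Adcy9 is the most divergent of the family and is described either as calcium-insensitive or as inhibited through calcineurin, and it was kept apart. In cortex, the calcium-stimulated enzymes are known for their part in synaptic plasticity.

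The deposited values are log2 expression values, normalized by the authors with RMA, which corrects for background, aligns the arrays and summarizes each probe set. For P4htm, the targeted gene, the brighter probe set had 11.05 in the WT array against 9.10 in the P4H-TM KO array, and the other had 9.71 against 8.07. Of the markers of excitatory cortical neurons, all 7 measured passed a signal filter set at the median mean value of a probe set, 6.385. Markers of tissue bordering the cortex were higher in the P4H-TM KO array, with all 10 choroid plexus and all 9 meninges markers above their WT values. Their medians of the log2 difference, P4H-TM KO minus WT, were 1.61 and 0.65. All 8 measured oligodendrocyte markers were lower, with a median of −0.27. In whole tissue, fewer cells of a type and less RNA per cell cannot be told apart. Of 5101 genes with at least 2 probe sets above the filter, the pooled SD of the difference between probe sets of a gene was 0.10, which is a spread within these arrays and not one between animals.

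On its brightest probe set, no adenylyl cyclase differed by 1.5-fold or more between P4H-TM KO and WT cortex. The P4H-TM KO value was above that of WT for 4 genes and below it for 5, and the median log2 difference was −0.01. Among all genes 46.0% were higher and 49.0% were lower at any size, and their median was 0.00. Of the 8 members above the signal filter 3 were higher, beside 50.1% of all genes above it, and 5 were lower, beside 45.2%. Adcy8 and Adcy4 had the highest differences, 0.41 and 0.35, and were the only members past 1.2-fold, while Adcy7 had the lowest, −0.15. At least 1.2-fold higher was 1 of these 8, beside 2.90% of all 11730 genes above the filter. None was 1.2-fold lower, beside 1.83%, and at 1.5-fold the shares of all genes were 0.631% higher and 0.0512% lower. Without the filter, 2 of 9 members were at least 1.2-fold higher, beside 4.12% of all genes, and none was 1.2-fold lower, beside 4.91%. At 1.5-fold the shares without the filter were 0.610% higher and 0.148% lower. Adcy8 and Adcy4 were among the genes that the study picked out on these same arrays, so their direction is not independent evidence. The middle 95% of genes above the filter lay between −0.23 and 0.28, and all members above it except Adcy8 lay within this range.

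**Figure D1:**
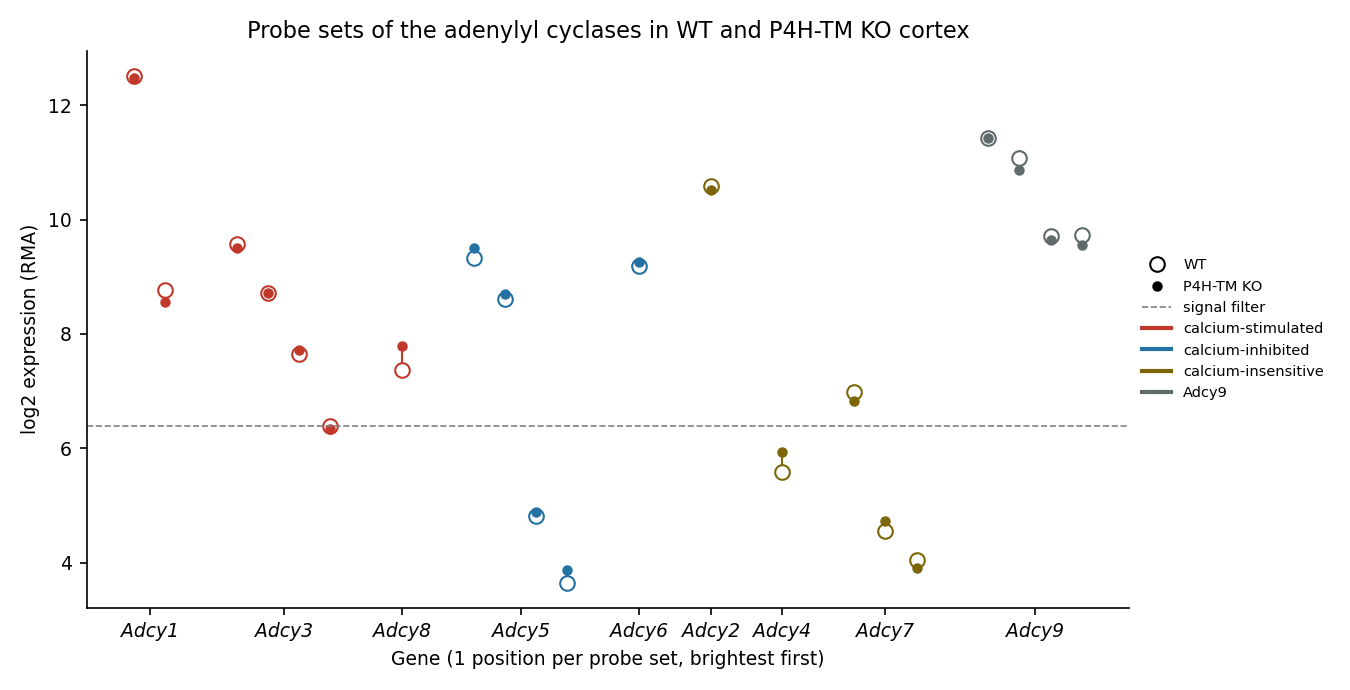
Log2 expression (vertical axis, RMA) of each probe set of the adenylyl cyclases in WT (open circles) and P4H-TM KO (filled points) cortex, with 1 position per probe set and colours for the calcium classes. Error bars are lacking, as each genotype has 1 array. The points of most probe sets nearly coincide, and the widest gaps belong to Adcy8, at 7.37 in WT against 7.78 in P4H-TM KO, and Adcy4, at 5.58 and 5.93 below the dashed line of the signal filter.

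Among the calcium-stimulated cyclases, Adcy8 was higher in P4H-TM KO, whereas Adcy1 and Adcy3 were close to their WT values. Adcy8 encodes a cyclase of low calcium affinity that is activated when calcium rises strongly in active neurons. Its only probe set had 7.37 in WT against 7.78 in P4H-TM KO, a difference of 0.41 or 1.33-fold. Of the genes above the filter, 1.53% differed by more in either direction and 1.22% had a larger increase, so Adcy8 stood near the upper edge of that distribution. Differences were wider at low signal, with a median size of 0.13 below the filter against 0.07 above it. The mean of Adcy8, 7.575, lay below the 70th percentile of probe set means, 8.11, and its share among genes of like signal was not computed. Adcy8 has no second probe set against which its difference could be checked. Of 8 markers of the hippocampus, where Adcy8 is also known to be expressed, 1 was higher and 7 were lower, from −0.30 to 0.10, with a median of −0.10. The summed linear signal of these markers was 11678 in WT against 11198 in P4H-TM KO. Choroid plexus and meninges markers were higher, like Adcy8. The part of hippocampus, choroid plexus or meninges in the Adcy8 difference was not tested. The summed linear signals of choroid plexus and meninges markers were 25093 and 4034 in WT against 36394 and 6717 in P4H-TM KO. Most of the choroid plexus sum came from Ttr, the transthyretin gene, whose difference of 0.37 was the lowest of that list, so the sum shows a smaller shift than the median of 1.61. The 4 probe sets of Ttr ran from 0.37, on the brightest, to 0.96.

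Adcy1 encodes the neuron-specific calmodulin-stimulated cyclase, which couples calcium entry to cAMP at synapses. Its brightest probe set had 12.51 in WT against 12.47 in P4H-TM KO, and 63.8% of genes above the filter differed by more than this −0.04. The other had 8.76 and 8.56, a difference of −0.20, so that both probe sets were lower in P4H-TM KO but by unequal amounts. Adcy3 encodes the cyclase of olfactory neurons and of neuronal primary cilia. Its brightest probe set had 9.57 in WT against 9.50 in P4H-TM KO, and its others had 8.72 and 8.71, 7.64 and 7.71, and 6.38 and 6.34. Differences over these 4 probe sets ran from −0.07 to 0.07, within the spread between probe sets and without a common direction. Only the brightest is of a type designed to match Adcy3 alone, as the other 3 can match further transcripts by their design.

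Both calcium-inhibited cyclases had higher values in P4H-TM KO, by small amounts. Adcy5 encodes the main cyclase of the striatum, where it serves dopamine and adenosine receptors. Its brightest probe set had 9.33 in WT against 9.51 in P4H-TM KO, a difference of 0.18 that 11.3% of genes above the filter exceeded in size. The remaining probe sets of Adcy5 had 8.61 and 8.69, 4.81 and 4.88, and 3.65 and 3.87, the last pair far below the filter. All 4 were higher in P4H-TM KO, with a mean difference of 0.14. Striatal markers went both ways, as 2 of 8 were higher and 6 lower, from −0.40 to 0.16, with a median of −0.06 and a summed linear signal of 5307 in WT against 5125 in P4H-TM KO. The part of striatal tissue in the Adcy5 difference was not tested. Adcy6 encodes a broadly expressed cyclase close in sequence to that of Adcy5. It had 9.19 in WT against 9.25 in P4H-TM KO on its only probe set, and 50.1% of genes above the filter differed by more.

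The calcium-insensitive cyclases did not share a direction. Adcy2 encodes a brain cyclase stimulated by βγ subunits together with the stimulatory α subunit. Its only probe set had 10.58 in WT against 10.51 in P4H-TM KO, a difference of −0.07. Adcy4 is known from vascular endothelium. Its only probe set, which lay below the signal filter on both arrays, had 5.58 in WT against 5.93 in P4H-TM KO. The difference of 0.35, or 1.27-fold, was exceeded in size by 7.26% of the 6463 genes below the filter, among which the middle 95% lay between −0.40 and 0.37. Endothelial markers moved in the same direction, with 6 of 8 higher, 1 lower and a median of 0.15, and their summed linear signal was 3903 in WT against 4195 in P4H-TM KO. None of them was 1.2-fold higher, beside 4.12% of all genes. Mural cell markers had a median of 0.12, with 5 of 7 higher, and a summed linear signal of 5339 in WT against 6108 in P4H-TM KO. Of these 7, all above the filter, 3 were at least 1.2-fold higher, beside 2.90% of all genes above it, and none was 1.2-fold lower, beside 1.83%. At 1.5-fold 1 was higher, beside 0.631%. The part of these cells, of choroid plexus or of meninges in the Adcy4 difference was not tested.

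Adcy7 encodes the cyclase of blood cells and microglia. Its brightest probe set had 6.98 in WT against 6.83 in P4H-TM KO, a difference of −0.15 that 16.3% of genes above the filter exceeded in size. Its dimmer probe sets had 4.55 and 4.73, and 4.05 and 3.91, so that differences of both signs occurred within the gene. The brightest can match further transcripts by its design, and without such probe sets the difference of Adcy7 was 0.18 on a probe set below the filter. Microglia markers were balanced, with 4 of 8 higher and 4 lower and a median of −0.01. Their summed linear signal was 9016 in WT against 8784 in P4H-TM KO. Of 5 measured blood cell markers, all below the filter, 4 were lower, with a summed linear signal of 382 in WT against 203 in P4H-TM KO, and their part in the Adcy7 difference was not tested.

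Adcy9 encodes a widely expressed cyclase that responds poorly to forskolin, the plant compound that activates the other membrane cyclases. Its brightest probe set had 11.43 in WT against 11.42 in P4H-TM KO, and 87.5% of genes above the filter differed by more. Its other probe sets had 11.08 and 10.86, 9.71 and 9.65, and 9.73 and 9.55. All 4 were lower in P4H-TM KO, with differences from −0.22 to −0.01 and a mean of −0.12, so that the brightest one showed the smallest difference. A pair of the probe sets, those at −0.22 and −0.06, were designed from the same transcript sequence and are not independent of each other.

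The comparison of the calcium classes addressed whether cyclases that calcium stimulates differed between genotypes in another way than the others. The calcium-stimulated cyclases had a median difference of −0.04, with 1 of 3 genes higher in P4H-TM KO. The calcium-inhibited cyclases had a median of 0.12, with 2 of 2 higher, and the calcium-insensitive ones a median of −0.07, with 1 of 3 higher. The medians of calcium-stimulated and calcium-insensitive cyclases were thus 0.03 apart. That of calcium-stimulated cyclases lay below that of the calcium-inhibited ones, with a gap of −0.16, although Adcy8 lay above both calcium-inhibited genes. As means over genes the calcium-stimulated and calcium-inhibited classes had 0.10 and 0.12. Within the classes the genes spanned 0.48, 0.12 and 0.50, so the genes of the calcium-stimulated class differed more among themselves than its median did from that of either other class. Over probe sets, 2 of 7 were higher for calcium-stimulated, 5 of 5 for calcium-inhibited and 2 of 5 for calcium-insensitive cyclases. Among all genes, on their brightest probe sets, 46.0% were higher at any size. Of the 5 probe sets of the calcium-inhibited class, 4 belong to Adcy5, so they do not count as separate genes. Those of Adcy5 with 4.81 and 3.65 in WT lay below the signal filter. The gaps were not tested, as there is 1 array per genotype and the classes hold 2 or 3 genes each.

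**Figure D2:**
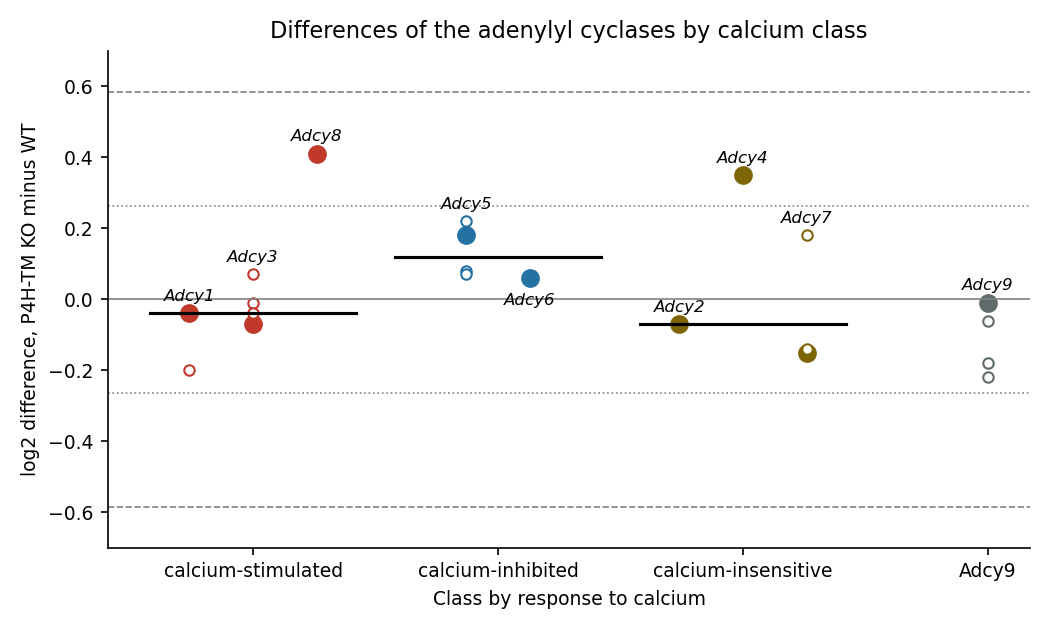
Log2 difference, P4H-TM KO minus WT (vertical axis), of the adenylyl cyclases by calcium class, with large filled points for the brightest probe set of a gene, small open points for its other probe sets and black bars for class medians. Dotted lines mark 1.2-fold and dashed lines 1.5-fold, and error bars are lacking with 1 array for each genotype. Medians lie at −0.04, 0.12 and −0.07, and Adcy8 and Adcy4, from different classes, are the only points past 1.2-fold.

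The class medians depended on single genes and probe sets. Without Adcy3, which calcium stimulates in the test tube and inhibits through a kinase in cells, the median of the calcium-stimulated class was 0.19. It then lay above the 0.12 of the calcium-inhibited class. Without probe sets that can match further transcripts, the median of the calcium-insensitive class was 0.18. That value is of 1 Adcy7 probe set below the filter, and the other one left, designed from the same transcript sequence, had −0.14. The calcium-inhibited class kept a value between 0.06 and 0.12 when Adcy9 was counted in it, when its genes were averaged or when all its probe sets were used. With Adcy9 counted as calcium-insensitive, the median of that class was −0.04.

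**Figure D3:**
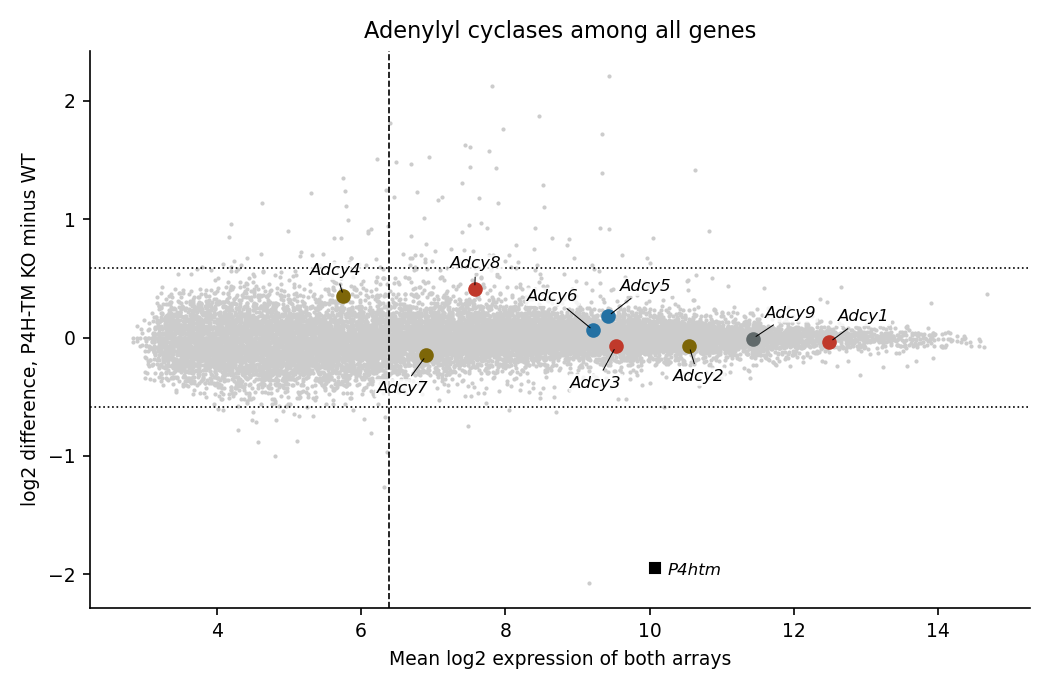
Log2 difference, P4H-TM KO minus WT (vertical axis), against mean log2 expression of both arrays (horizontal axis) for all 18193 genes (grey), with the adenylyl cyclases coloured by calcium class (red, calcium-stimulated; blue, calcium-inhibited; ochre, calcium-insensitive; grey, Adcy9). The dashed line marks the signal filter and the dotted lines 1.5-fold. P4htm lies at −1.95, and every cyclase lies between the dotted lines.

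Promoters of the cyclases are shown because P4H-TM belongs to the HIF-regulating hydroxylases and because cAMP acts on genes through CREB. RefSeq windows of 300 bases on GRCm38.p6 ran from 250 bases before to 50 after a gene start. They were found for 7 of the 9 genes, all but Adcy6 and Adcy8, with 10 windows in all. They were searched on both strands for a core of the HIF motif that reads ACGTG, for its other common core, which reads GCGTG, and for the CREB half-site, which reads TGACG and can share bases with the former core. The former core was found in 2 of 10 windows, those of Adcy1 and Adcy9, beside 19.6% of all 32851 windows of this length. The other core was found in 6 of 10 beside 32.4%, and the CREB half-site in 2 of 10 beside 20.8%. These counts are of windows and not of genes, as Adcy3 and Adcy7 have several windows each. The share of G and C in the cyclase windows ran from 54.7% to 79%, and the windows set beside them were not matched for it. Adcy9 and Adcy4 are printed, the first as the window with the most matches and the second as that of the gene with the highest difference among those with a window. Capitals mark the matches, on either strand, and the window of Adcy4 holds none. The matches are letters in a window and not binding sites, and the arrays hold no measure of binding.
Adcy9 (chr16:4420449-4420748, minus strand): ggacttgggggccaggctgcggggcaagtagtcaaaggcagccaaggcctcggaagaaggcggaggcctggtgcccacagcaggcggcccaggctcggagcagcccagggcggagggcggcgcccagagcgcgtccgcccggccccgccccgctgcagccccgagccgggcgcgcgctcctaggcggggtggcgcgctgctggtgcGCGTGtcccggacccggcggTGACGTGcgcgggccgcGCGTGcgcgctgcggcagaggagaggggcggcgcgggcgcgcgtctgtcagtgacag
Adcy4 (chr14:55784023-55784322, minus strand): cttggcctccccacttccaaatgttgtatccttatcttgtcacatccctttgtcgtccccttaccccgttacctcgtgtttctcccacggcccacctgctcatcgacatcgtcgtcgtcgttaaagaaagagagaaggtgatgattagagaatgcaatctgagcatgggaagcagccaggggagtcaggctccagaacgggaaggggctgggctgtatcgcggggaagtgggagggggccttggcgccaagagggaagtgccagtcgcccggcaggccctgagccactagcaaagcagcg

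The other genes of the cAMP pathway were examined in 11 lists, of which 91 of 106 genes were measured. P4H-TM KO values were higher for 43, lower for 43 and equal for 5, beside 46.0% higher and 49.0% lower among all genes, and the median difference was 0.00. Of 71 above the filter none was 1.5-fold higher or lower, beside 0.631% and 0.0512% of all genes above it. At 1.2-fold none was higher, beside 2.90%, and 1 was lower, beside 1.83%. Without the filter, 1 of 91 was at least 1.2-fold higher, beside 4.12% of all genes, and 6 were lower, beside 4.91%. Among the G protein α subunits, 5 of 7 were higher, led by Gnas, the stimulatory subunit, Gnai2 and Gnao1 at 0.09 each, while Gnaz and Gnal had −0.05 and −0.02. The 5 probe sets of Gnas ran from −0.26 to 0.42. The β subunits had 4 of 5 higher, with Gnb5 at 0.07, Gnb1 at 0.04, Gnb2 at 0.02 and Gnb4 at −0.09. Adcy10, the soluble cyclase that bicarbonate activates, lay below the filter with 5.13 in WT and 4.64 in P4H-TM KO, a difference of −0.49.

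Receptors that stimulate cyclases had a median of −0.04 over 14 measured genes, with 5 higher and 8 lower. Adcyap1r1, the PACAP receptor, had the highest difference above the filter, 0.14, with −0.07 and −0.03 on its other probe sets, and Crhr1, the receptor of corticotropin-releasing hormone, had 0.03. Gpr12, an orphan receptor, and Ptger4, a prostaglandin receptor, had the lowest, −0.19 and −0.18, and the other probe set of Ptger4 had 0.28. Receptors that inhibit cyclases had a median of 0.00 over 21 genes, with 10 higher and 9 lower. The serotonin receptor gene Htr1a and the adrenergic receptor gene Adra2c had 0.12 and 0.10, and the neuropeptide Y receptor genes Npy5r and Npy2r had −0.31 and −0.16. Npy5r was the 1 pathway gene above the filter past 1.2-fold, and its other probe set had −0.28. Htr1f, a serotonin receptor gene below the filter, had −0.67 and was the only one of all 91 past 1.5-fold. Among all genes, without the filter, 0.148% were at least 1.5-fold lower. The other probe set of Htr1f had 0.20.

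Phosphodiesterases, which break cAMP down, were split by their dependence on calmodulin. Pde1a, a calmodulin-dependent enzyme, had 11.51 in WT against 11.76 in P4H-TM KO, a difference of 0.25, with 0.24 on its second probe set, and Pde1b and Pde1c had 0.07 and −0.07. Of 12 other cAMP phosphodiesterases 3 were higher and 8 lower, with a median of −0.06. Pde8a and Pde7a had the lowest differences above the filter, −0.25 and −0.13, although probe sets of Pde7a reached 0.36, and Pde4b and Pde2a had the highest, 0.02 and 0.01.

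The effectors of cAMP differed little. Of 9 genes of protein kinase A, the main cAMP-dependent kinase, 6 were higher and 3 lower, from −0.10 for the inhibitor gene Pkig and −0.06 for Pkib to 0.08 for the catalytic subunit gene Prkacb and the regulatory subunit gene Prkar2b. The A-kinase anchoring proteins, which hold the kinase near its targets, had a median of −0.04 over 10 genes. Akap12 had 0.24 and Akap9 0.17, and Akap8 and Akap7 had −0.16 and −0.14. The 6 probe sets of Akap9 ran from −0.26 to 0.17. Rapgef3, a cAMP-activated exchange factor, had −0.01, and the cAMP-gated channel genes Hcn3 and Hcn2 had 0.00 and −0.16. Of 6 genes for CREB factors and coactivators 4 were higher, with Crem, Crtc1 and Crtc3 at 0.12 each, and Crtc2 and Crebbp had −0.18 and −0.03. Probe sets of Crem and Crtc3 reached −0.09 and −0.13, and the other one of Crtc2 had 0.13.

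**Figure D4:**
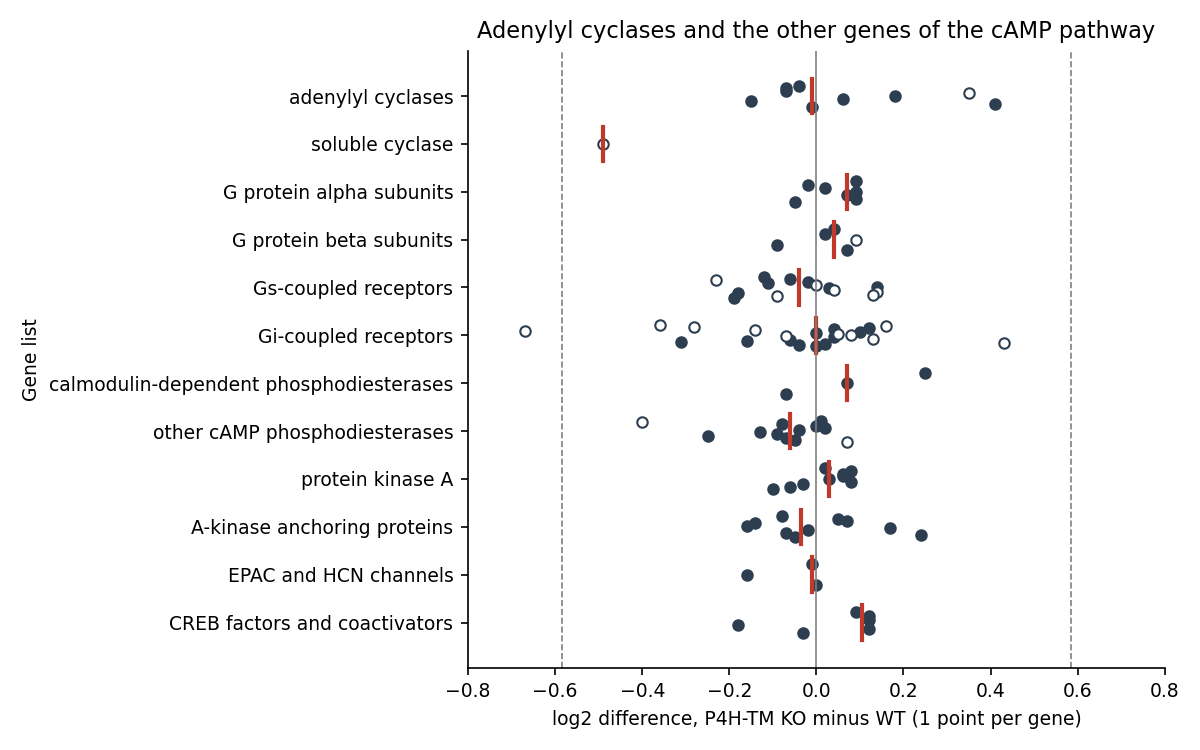
Log2 difference, P4H-TM KO minus WT (horizontal axis), with 1 point per gene for the adenylyl cyclases and the other lists of the cAMP pathway (vertical axis). Filled points are genes above the signal filter, open points genes below it, red bars list medians and dashed lines 1.5-fold, and error bars are lacking with 1 array for each genotype. The medians of lists of at least 2 genes lie between −0.06 and 0.11, and Htr1f is the only point past 1.5-fold.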

How the data were processed

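Cortical RNA was pooled from 4 male mice per genotype and hybridized to Affymetrix Mouse Genome expression arrays, 1 for WT and 1 for P4H-TM KO. The authors read intensities in the GeneChip Operating System, followed by normalization in GenePattern, and RMA is named in the submitters' processing notes, with its version not given in the sources used here. The deposited values are log2 values with 2 decimals, so a difference can be off by the last decimal. No detection calls or background per probe were used here, and the number of arrays limits the precision.

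Probe sets were named from the platform annotation where it gave 1 symbol (34945 without controls, 932 with several symbols and 9160 unnamed here), checked by gene ID against RefSeq, which held 34741 of them. Each gene was represented by its brightest probe set. The signal filter was the median of probe set means. Levels of different probe sets were compared to pick the brightest of a gene and to apply the filter. They were added over genes for the summed linear signals of marker lists, in which bright genes weigh most. With 1 array per genotype there was no test. Counts past 1.5-fold and 1.2-fold were set beside those of all genes. Computations used pandas 2.3.3 and numpy 2.4.6 in Python 3.11.15, with lowess from statsmodels 0.14.6 and plots from matplotlib 3.10.9. The code was checked on simulated arrays with 2-fold changes put into genes well above the filter. That check did not cover differences as small as those of the cyclases, or dim genes. The members, classes and lists were chosen with earlier results of these data known, and the study displays some of these genes. Named pathway genes were the 2 highest and 2 lowest of a list above the filter, with ties, any past 1.5-fold, and all of a list of 4 genes or fewer. The marker Ttr was named after its values were seen. No genes of like pattern were named, since 2 arrays give no pattern. Alternatives averaged probe sets or took their median, left out those ending in _x_at or _s_at, centred arrays, removed the intensity trend (lowess, span 0.3), moved the filter to the 70th percentile, or changed threshold and classes.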

Additional observations from a re-analysis of the deposited data

How the results depend on the processing

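No paired analysis was possible because there is 1 array per genotype, and no replicate could be left out. Values were taken as stable when they moved by less than 0.101, the pooled SD between probe sets, and counts when they stayed within 1.5 times. For the cyclase genes and their median of −0.01, 46 of 50 alternative values were stable, the others being those of Adcy7 (−0.04 averaged, 0.18 without probe sets that can match further transcripts) and Adcy9 (−0.12 averaged or as a median of probe sets). Part of this stability was fixed in advance. The 4 genes with 1 probe set, Adcy8 and Adcy4 among them, could not move when probe sets were averaged or left out. Centring moved all genes by the same small amount. The count is therefore no check of the differences of Adcy8 and Adcy4. For the class medians 23 of 27 were stable. The calcium-stimulated median of −0.04 was 0.10 as a mean over genes and 0.185 without Adcy3, and the calcium-insensitive one of −0.07 was 0.0433 as a mean and 0.18 without such probe sets. All 65 values of the pathway lists were stable, with the median of the cAMP-activated exchange factors and cAMP-gated channels of −0.01 close to the limit at −0.11 as a median of probe sets. The limit of 0.101 exceeded most list and class medians, so a median could shrink or change sign and still count as stable. As medians of probe sets, the CREB factors and coactivators went from 0.105 to 0.03 and the other cAMP phosphodiesterases from −0.06 to 0.0225. Adcy10, a list of 1 gene with 1 probe set, could not move when probe sets were averaged or left out. For P4htm the difference of −1.95 became −1.80 with its probe sets averaged or as their median and −1.64 on the probe set left without those that can match further transcripts. The 74 genes at least 1.5-fold higher numbered 25 with a 70th percentile filter and 26 for 2-fold, and the 6 lower ones numbered 27 without a filter, 3 with probe sets averaged and 2 at 2-fold. The causes of these shifts were not tested. Whether dim probe sets, such as that of Adcy4, lay above background is not known.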

Other observations

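Adcyap1, which encodes PACAP, a neuropeptide named for its activation of adenylyl cyclase, was looked up after the cyclase values had been seen. Its brighter probe set had 6.87 in WT against 7.38 in P4H-TM KO, a difference of 0.51 or 1.42-fold, and the other, below the signal filter, had 4.73 and 5.19, a difference of 0.46. Both were higher in P4H-TM KO, with no replicate check. Among all genes above the filter, 2.90% were at least 1.2-fold higher and 0.631% at least 1.5-fold higher.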
